A study of Mus musculus with 15 samples.

Results

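The cell junction genes of the mouse uterus were taken by name from an Agilent whole-genome array. They are the claudins (*Cldn*), occludin (*Ocln*), and the zonula occludens scaffold genes (*Tjp*) of tight junctions, the connexins (*Gja* to *Gje*) of gap junctions, and *Cdh1* of adherens junctions, with the desmocollins (*Dsc*), desmogleins (*Dsg*), plakophilins (*Pkp*), *Dsp*, *Jup*, *Ppl*, and *Evpl* of desmosomes. The array carried 61 such genes on 90 probes. A gene was kept when a probe of it was well above background on at least 2 of the 3 arrays of 1 group, and its brightest probe stood for it. This left 51 genes of the 18631 named genes tested, namely 22 of 25 tight junction genes, 15 of 18 gap junction genes, 13 of 17 desmosome genes, and *Cdh1*. Among the 10 genes not kept were *Cldn13*, *Cldn17*, *Cldn18*, *Dsc1*, *Dsc3*, *Dsg1a*, *Dsg4*, *Gja9* (now *Gjd2*), and *Gje1* (now *Gjc3*). Of the genes kept, *Gja7* is now named *Gjc1*, and the gene that the files call *Gjc1* is now *Gjd3*. The older names are used here.

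RNA came from uteri of ovariectomized adult females (10 weeks or older). After a rest of 10 to 14 days they received 100 µL saline intraperitoneally, either alone or with 250 ng of estradiol (E2) or estriol (E3). Estriol differs from estradiol by an additional hydroxyl group and is a weak estrogen. The 5 groups of 3 arrays were saline at 24 hr, E2 at 2 hr, E3 at 2 hr, E2 at 24 hr, and E3 at 24 hr. Mice of the strain C57bl6/J gave every group except E2 at 2 hr, whose mice were C57bl6/Jx129 with a WT *Esr1* genotype. The E2 2-hr arrays were also on other slides and were read on another scanner and another day, so strain, scanner, and treatment cannot be told apart for them. The arrays of E2 at 24 hr and of E3 at 24 hr were each on slides without another group, so slide and treatment cannot be told apart there either. Only E3 at 2 hr shared a slide with a saline array. No saline array at 2 hr was used here, so the 24-hr saline arrays served both times and all comparisons with saline share them. The labels state that each uterus was homogenized singly, whereas the methods describe pooled tissue, so p-values measure the spread between the 3 arrays of a group.

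Tight junctions seal the space between neighboring epithelial or endothelial cells. The claudins in their strands set which ions and how much water pass, and the *Tjp* scaffolds tie the strands to actin. Gap junctions are channels made of connexins that let ions and small metabolites move from cell to cell. Desmosomes rivet cells together through the cadherins *Dsc* and *Dsg*, which plakoglobin (*Jup*), the plakophilins, and desmoplakin (*Dsp*) connect to keratin filaments. In the rodent uterus the luminal epithelium remodels its junctions under ovarian steroids and around embryo attachment, and connexins join the cells of the muscle wall and of the decidualizing stroma.

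Signals are given as normalized log2 levels, scaled so that the 75th percentile of the probes of each array is 0, and levels of different probes are not comparable. Changes are log2 differences of group means with the SE of the fit (3 arrays a group). A gene was called when limma gave a p-value below 0.001 and a change of at least 2-fold, and the adjusted p is limma's Benjamini-Hochberg value over all tested probes. At 2 hr, E2 changed 16 of the 51 junction genes (31.4%), 6 upward and 10 downward. Of all genes tested in that comparison, 19.4% were called, 8.84% upward and 10.5% downward. At the same time, E3 changed 10 junction genes (19.6%), 5 in each direction, against 12.3% of all genes (4.62% upward and 7.7% downward). At 24 hr, E2 changed 15 (29.4%), 11 upward and 4 downward, against 16.1% of all genes (7.73% upward and 8.37% downward). E3 at 24 hr changed 4 (7.84%), 3 upward and 1 downward, against 3.93% (2.28% upward and 1.65% downward). In all, 24 of the 51 genes were called in at least 1 of these comparisons and 27 in none, beside 33.1% of all genes tested that were called in at least 1. The arrays of the groups compared did not overlap for any called gene. This adds no support to the calls, since many junction genes that were not called did not overlap either.

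**Figure D1:**
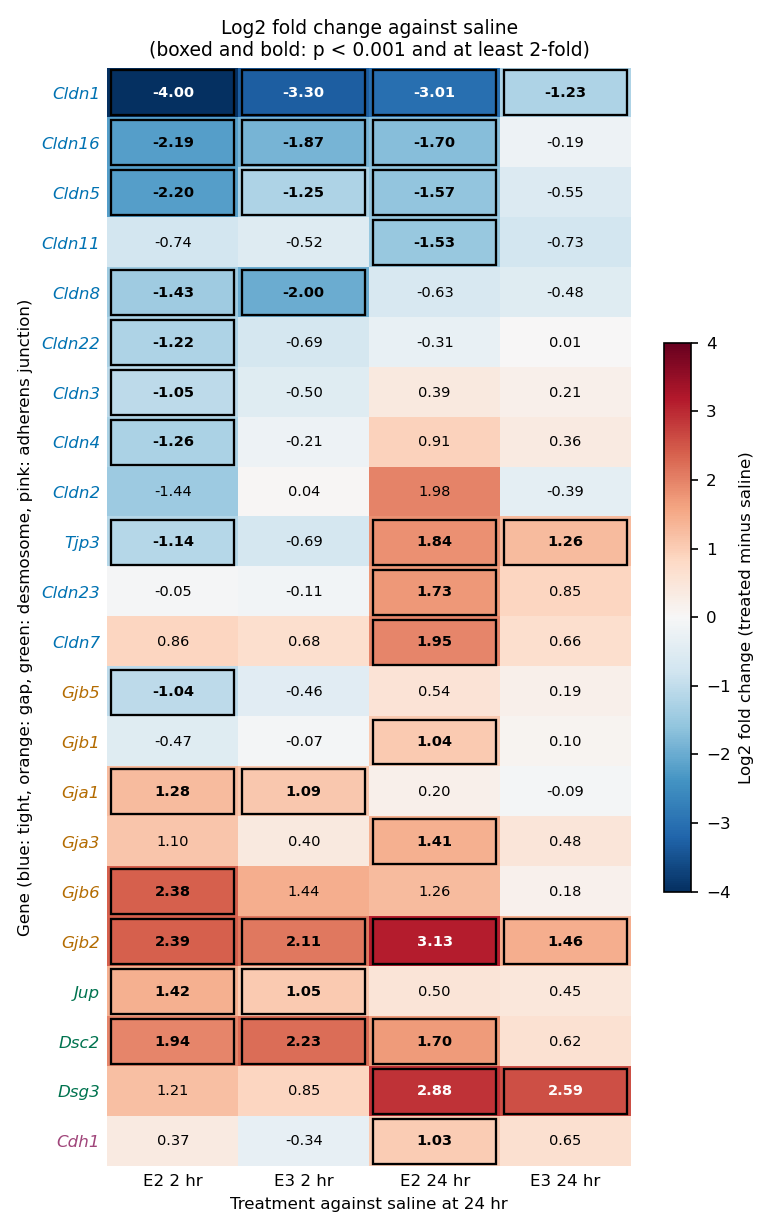
Log2 fold change against saline at 24 hr (columns) of 22 junction genes (rows) called in a comparison with saline or between E3 and E2. Red is higher and blue lower than saline, and boxed bold values are called. The saline level of *Dsg3* was not well above background, so that its values are differences of measured means. *Gjb2* was up and *Cldn1* was down in every column, and the E3 24-hr column holds 4 boxes against 13 for E2 at 24 hr.

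By class, the counts were as follows. At 2 hr of E2, 8 of the 22 tight junction genes were called and each of the 8 fell, and the median log2 change of the class was -0.72, beside -0.13 over all genes tested. Of the 15 gap junction genes, 4 rose and 2 fell (median 0.22), and of the 13 desmosome genes 2 rose (median -0.41). E3 at 2 hr gave 4 tight junction falls and no rise (median -0.39, beside -0.10 over all genes), 3 gap junction rises with 1 fall, and 2 desmosome rises. At 24 hr of E2, tight junction genes were split into 3 rises and 4 falls (median 0.08, beside 0.03 over all genes), whereas gap junction genes had 5 rises and 0 falls (median 0.50) and desmosome genes 2 rises and 0 falls (median 0.81). *Dsg3*, 1 of the 2 desmosome rises, and other desmogleins passed the filter only through 24-hr groups. The filter thus favored their rise, and the desmosome medians at 24 hr rest partly on them. The E3 medians at 24 hr were -0.09, 0.19, and 0.45 for tight junctions, gap junctions, and desmosomes, with 0.05 over all genes. The plot of all members by class shows these shifts.

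**Figure D2:**
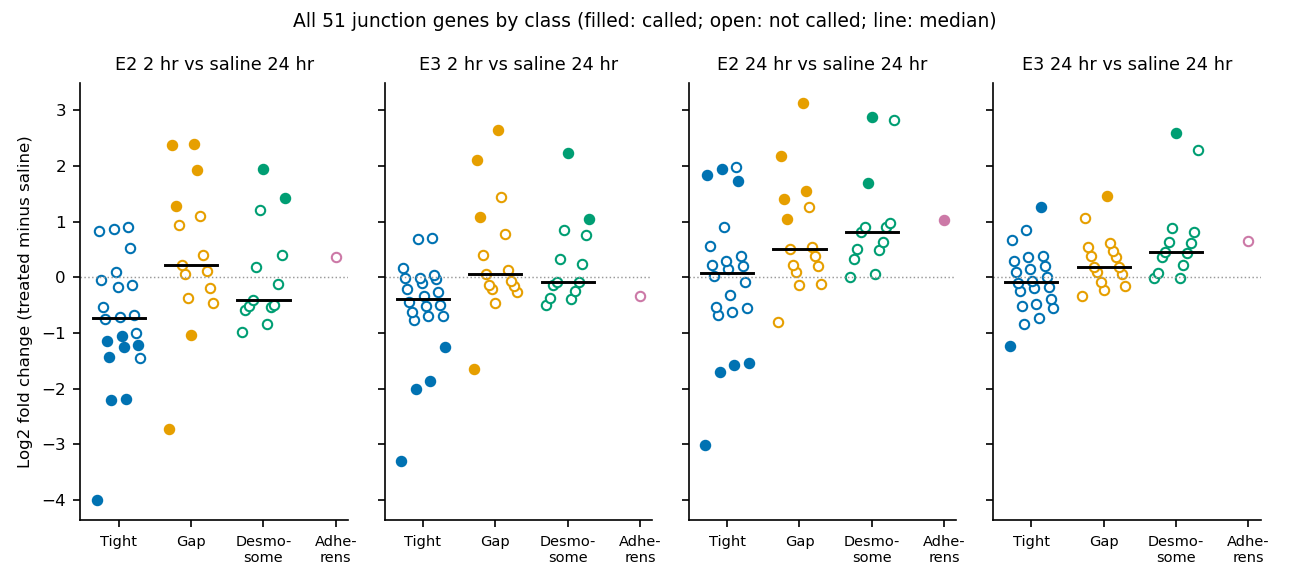
Log2 fold change against saline (y axis) of all 51 junction genes by class (x axis) in the 4 comparisons with saline. Each point is 1 gene, filled when called, and lines are class medians. Filled tight junction points lie below 0 in both 2-hr panels and on both sides of 0 in the E2 24-hr panel, and filled desmosome points lie above 0 in every panel. The only filled desmosome point in the E3 24-hr panel is *Dsg3*, which passed the filter only through E2 at 24 hr.

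Between 77.82% and 81.75% of the probes of an array were well above background, and the arrays of a group correlated at r = 0.9818 to 0.9951. The 5 genes fixed as uterine markers (*Esr1*, *Pgr*, *Hoxa10*, *Hoxa11*, *Msx1*) were all measured. Levels of a marker list are given as the log2 of its summed signal on each array. The 8 liver transcripts measured summed to 2.41 to 4.31 on the saline arrays, -4.90 to -4.52 at 2 hr of E2, 0.37 to 1.73 at 2 hr of E3, -2.02 to -1.47 at 24 hr of E2, and -1.75 to -0.96 at 24 hr of E3. Pancreatic enzyme transcripts reached 9.08 on array 2 of E3 at 2 hr and 8.05 on array 2 of E2 at 24 hr, against -1.30 to -0.84 on the saline arrays, and 3.56 and 2.39 on array 3 of these groups. The lymphoid sum was 3.45 on saline array 2, 4.18 on array 3 of E3 at 2 hr, and 3.54 on array 3 of E3 at 24 hr, and 0.80 to 2.67 on the others. Squamous keratin and related transcripts summed to 1.67 to 2.45 on the saline arrays, 4.85 to 5.68 at 24 hr of E2, and 3.29, 6.01, and 2.91 on arrays 1, 2, and 3 of E3 at 24 hr. Simple epithelial markers summed to 6.29 to 6.72 on the saline arrays, 6.02 to 6.44 at 2 hr of E2, 6.10 to 6.41 at 2 hr of E3, 7.70 to 7.74 at 24 hr of E2, and 7.08 to 7.16 at 24 hr of E3. Their part in the results was not tested, and in whole tissue fewer cells of a type and less RNA per cell cannot be told apart. Without array 2 of E3 at 2 hr, E2 at 24 hr, and E3 at 24 hr, the called junction genes numbered 15, 10, 13, and 2 in the 4 comparisons with saline, in place of 16, 10, 15, and 4, and array 3 of each group was kept in that fit.

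*Cldn1*, a barrier claudin of epithelia, epidermis, and liver, was the single junction gene called lower in all 4 comparisons with saline. *Cldn1* read -0.56, -0.73, and -0.74 on the saline arrays, -4.32, -5.06, and -4.65 at 2 hr of E2, -3.85, -3.76, and -4.30 at 2 hr of E3, -3.70, -3.54, and -3.82 at 24 hr of E2, and -1.51, -1.86, and -2.35 at 24 hr of E3. No treated array overlapped the saline arrays, and the E3 24-hr arrays lay between those of saline and those of every other treated group. E2 lowered it 16.1-fold (log2 -4.0 ± 0.225, SE, adjusted p = 4.06e-08) at 2 hr and 8.04-fold (log2 -3.01 ± 0.225, SE, adjusted p = 7.73e-07) at 24 hr. E3 lowered it 9.82-fold (log2 -3.30 ± 0.225, SE, adjusted p = 3.32e-07) at 2 hr and 2.34-fold (log2 -1.23 ± 0.225, SE, adjusted p = 0.00168) at 24 hr. The liver sum given above was also highest on the saline arrays, where it was 4.31, 2.77, and 2.41 in the order of the *Cldn1* levels above, and its part in the *Cldn1* result was not tested. Of the calls named below as lost when an array was left out or another processing was used, some stayed past 2-fold but not past the p-value limit. The call of *Cldn1* for E3 at 24 hr rested on 1 of the 2 *Cldn1* probes (log2 -1.23, and -0.77 for the other), and it was lost without array 2 of E3 at 2 hr, E2 at 24 hr, and E3 at 24 hr together (log2 -1.25) and with the normexp background correction, a model-based subtraction of local background (log2 -1.02).

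*Cldn5*, the main claudin of endothelial cells, and *Cldn16*, a claudin of the kidney that serves magnesium uptake, fell with E2 at both times and with E3 at 2 hr. *Cldn5* read 4.01, 3.83, and 3.79 on the saline arrays, 1.83, 1.65, and 1.55 at 2 hr of E2, 2.78, 2.66, and 2.46 at 2 hr of E3, 2.19, 2.48, and 2.27 at 24 hr of E2, and 3.63, 3.29, and 3.07 at 24 hr of E3. Every 2-hr array and every E2 24-hr array lay below the saline arrays by over 1 log2 unit. *Cldn5* fell 4.59-fold (log2 -2.20 ± 0.144, SE, adjusted p = 1.25e-07) at 2 hr and 2.96-fold (log2 -1.57 ± 0.144, SE, adjusted p = 2.97e-06) at 24 hr of E2, and 2.37-fold (log2 -1.25 ± 0.144, SE, adjusted p = 1.92e-05) at 2 hr of E3. With E3 at 24 hr it was -0.55 ± 0.144 (SE) on the log2 scale relative to saline and not called. Of 7 endothelial markers, 0 were called at 2 hr of E2 or E3, where 19.4% and 12.3% of all genes tested were called. At 24 hr of E2, 1 fell, *Cdh5*, the cadherin of endothelial junctions, beside 8.37% of all genes called lower. The summed level of the 7 markers was 4.17 to 4.27 on the saline arrays, 3.81 to 4.34 at 2 hr of E2, 3.96 to 4.01 at 2 hr of E3, 3.65 to 3.75 at 24 hr of E2, and 4.13 to 4.18 at 24 hr of E3.

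*Cldn16* read -5.10, -5.39, and -5.17 on the saline arrays, -8.01, -7.38, and -6.85 at 2 hr of E2, -6.95, -6.64, and -7.70 at 2 hr of E3, -7.01, -6.73, and -7.02 at 24 hr of E2, and -5.38, -5.33, and -5.54 at 24 hr of E3. The E3 24-hr arrays lay next to saline and partly overlapped it, and the other treated arrays lay well below, between -8.01 and -6.64. The dimmest probes that count as well above background were at -8.29 to -7.76 on these arrays, and 2 of the 3 *Cldn16* readings at 2 hr of E2 passed that test. *Cldn16* fell 4.55-fold (log2 -2.19 ± 0.282, SE, adjusted p = 2.80e-05) at 2 hr of E2, 3.66-fold (log2 -1.87 ± 0.282, SE, adjusted p = 0.000153) at 2 hr of E3, and 3.25-fold (log2 -1.70 ± 0.282, SE, adjusted p = 0.00024) at 24 hr of E2. With normexp these log2 changes were -0.99, -0.81, and -0.75 and none was called. The probes of *Cldn1* and *Cldn16* lie 117 kb apart at most, at chr16:26018826-26135674 in mm7, the build that the scanner files name.

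*Cldn8*, a sealing claudin of the distal nephron and other tight epithelia, fell at 2 hr with both compounds. *Cldn8* read 0.08, -0.02, and -0.12 on the saline arrays, -1.11, -1.88, and -1.35 at 2 hr of E2, -1.89, -1.96, and -2.20 at 2 hr of E3, -0.47, -0.93, and -0.54 at 24 hr of E2, and -0.22, -0.48, and -0.80 at 24 hr of E3. The 2-hr groups lay below all saline arrays, and the 24-hr groups lay between them and saline. Its change was 2.69-fold (log2 -1.43 ± 0.2, SE, adjusted p = 5.45e-05) lower with E2 and 3.99-fold (log2 -2.00 ± 0.2, SE, adjusted p = 6.06e-06) lower with E3 at 2 hr. At 24 hr it was -0.63 with E2 and -0.48 with E3 on the log2 scale and not called. From 2 to 24 hr of E3 it rose 2.86-fold (log2 1.52 ± 0.2, SE, adjusted p = 4.42e-05).

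Of the claudins of simple epithelia, *Cldn3* and *Cldn4* fell at 2 hr of E2 and *Cldn7* rose at 24 hr of E2. *Cldn4* read -2.84, -2.76, and -3.01 on the saline arrays, -4.18, -4.24, and -3.97 at 2 hr of E2, -2.85, -2.99, and -3.41 at 2 hr of E3, -1.91, -2.12, and -1.86 at 24 hr of E2, and -2.37, -2.72, and -2.45 at 24 hr of E3. The E2 2-hr arrays were the lowest, those of E3 at 2 hr overlapped saline, and those of both compounds at 24 hr lay above saline. *Cldn4* fell 2.39-fold (log2 -1.26 ± 0.149, SE, adjusted p = 1.40e-05) at 2 hr of E2, and was -0.21 with E3. *Cldn3* read 3.05, 2.79, and 2.45 on the saline arrays, 1.66, 2.03, and 1.46 at 2 hr of E2, 2.22, 2.70, and 1.87 at 2 hr of E3, 3.12, 3.26, and 3.1 at 24 hr of E2, and 3.12, 2.91, and 2.90 at 24 hr of E3. The arrays of E2 at 2 hr lay below saline, the E2 24-hr arrays lay above it, and the E3 arrays overlapped it at both times. *Cldn3* fell 2.07-fold (log2 -1.05 ± 0.21, SE, adjusted p = 0.000863) at 2 hr of E2. Its call was lost without saline array 1 or 2 or E2 2-hr array 1 or 3 (log2 -1.04 to -0.91). The probes of *Cldn3* and *Cldn4* lie within 41.9 kb of each other at chr5:133916757-133958648 (mm7).

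*Cldn7* read 2.87, 2.48, and 2.58 on the saline arrays, 3.08, 3.68, and 3.76 at 2 hr of E2, 3.49, 3.49, and 2.99 at 2 hr of E3, 4.64, 4.59, and 4.55 at 24 hr of E2, and 3.35, 3.24, and 3.34 at 24 hr of E3. The 3 arrays of E2 at 24 hr stood above every other array, and the other treated groups lay between them and saline. *Cldn7* rose 3.86-fold (log2 1.95 ± 0.18, SE, adjusted p = 3.01e-06) at 24 hr of E2 and was 0.86, 0.68, and 0.66 on the log2 scale with E2 at 2 hr, E3 at 2 hr, and E3 at 24 hr. *Cldn23* rose 3.31-fold (log2 1.73 ± 0.164, SE, adjusted p = 3.63e-06) at 24 hr of E2. *Cldn23* read -1.41, -1.63, and -1.46 on the saline arrays, -1.23, -1.83, and -1.59 at 2 hr of E2, -1.54, -1.42, and -1.87 at 2 hr of E3, 0.34, 0.17, and 0.17 at 24 hr of E2, and -0.40, -0.82, and -0.75 at 24 hr of E3. The 2-hr arrays overlapped saline, and the E3 24-hr arrays lay between saline and E2 at 24 hr.

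*Cldn2*, which forms a channel for cations and water, was called against saline in none of the 4 comparisons but differed between the compounds. *Cldn2* read -3.80, -3.14, and -5.11 on the saline arrays, -6.07, -4.64, and -5.64 at 2 hr of E2, -3.30, -3.90, and -4.72 at 2 hr of E3, -2.47, -1.79, and -1.85 at 24 hr of E2, and -4.59, -4.16, and -4.48 at 24 hr of E3. The E2 24-hr arrays lay above all others, and the saline arrays spread from -5.11 to -3.14, around all E3 arrays of both times. Its change at 24 hr of E2 was 1.98 ± 0.501 on the log2 scale (adjusted p = 0.00447). From 2 to 24 hr of E2 it rose 10.7-fold (log2 3.42 ± 0.501, SE, adjusted p = 5.51e-05).

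The remaining called claudins were *Cldn11*, known from myelin and Sertoli cells, and *Cldn22*. *Cldn11* read -3.84, -3.40, and -4.04 on the saline arrays, -4.58, -4.49, and -4.44 at 2 hr of E2, -4.23, -4.37, and -4.24 at 2 hr of E3, -5.17, -5.32, and -5.38 at 24 hr of E2, and -4.51, -4.76, and -4.21 at 24 hr of E3. Arrays of every treated group lay below all saline arrays, and only E2 at 24 hr was called, 2.88-fold (log2 -1.53 ± 0.161, SE, adjusted p = 7.59e-06) lower. *Cldn22* read -1.87, -2.68, and -1.96 on the saline arrays, -3.67, -3.0, and -3.50 at 2 hr of E2, -2.80, -2.61, and -3.16 at 2 hr of E3, -2.42, -2.35, and -2.67 at 24 hr of E2, and -1.84, -2.27, and -2.36 at 24 hr of E3. At 2 hr the E2 arrays lay below saline and overlapped those of E3 at 2 hr, and *Cldn22* fell 2.33-fold (log2 -1.22 ± 0.24, SE, adjusted p = 0.000767) there. That call was lost without saline array 1 or 3 or E2 2-hr array 1 or 3 (log2 -1.17 to -1.07). With normexp, the changes of *Cldn11* and *Cldn22* were -1.06 and -1.15 and not called, and with quantile normalization that of *Cldn22* was -1.05.

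*Tjp3*, a zonula occludens scaffold gene, was below saline at 2 hr and above it at 24 hr. *Tjp3* read 0.67, 0.40, and 0.57 on the saline arrays, -0.71, -0.65, and -0.43 at 2 hr of E2, -0.11, -0.07, and -0.25 at 2 hr of E3, 2.37, 2.35, and 2.43 at 24 hr of E2, and 1.90, 1.78, and 1.76 at 24 hr of E3. The 5 groups did not overlap one another. It fell 2.21-fold (log2 -1.14 ± 0.0967, SE, adjusted p = 8.77e-07) at 2 hr of E2 and rose 3.57-fold (log2 1.84 ± 0.0967, SE, adjusted p = 1.16e-07) at 24 hr of E2 and 2.4-fold (log2 1.26 ± 0.0967, SE, adjusted p = 2.15e-05) at 24 hr of E3. From 2 to 24 hr it rose 7.88-fold with E2 and 3.88-fold with E3. The scaffold *Tjp1* was not called in these comparisons, with log2 changes of -0.68 to -0.17. *Ocln*, the first transmembrane protein known from tight junctions, was -1.0 at 2 hr of E2 and -0.76 at 2 hr of E3 and was not called against saline by its brightest probe. Its value at 2 hr of E2 fell just short of 2-fold (limma adjusted p = 0.000652), and its other probe was called lower there (-1.09). It rose 2.45-fold (log2 1.29 ± 0.192, SE, adjusted p = 6.04e-05) from 2 to 24 hr of E2 and 2.22-fold (log2 1.15 ± 0.192, SE, adjusted p = 0.00027) from 2 to 24 hr of E3, the latter lost without array 3 of E3 at 2 hr (log2 0.95).

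**Figure D3:**
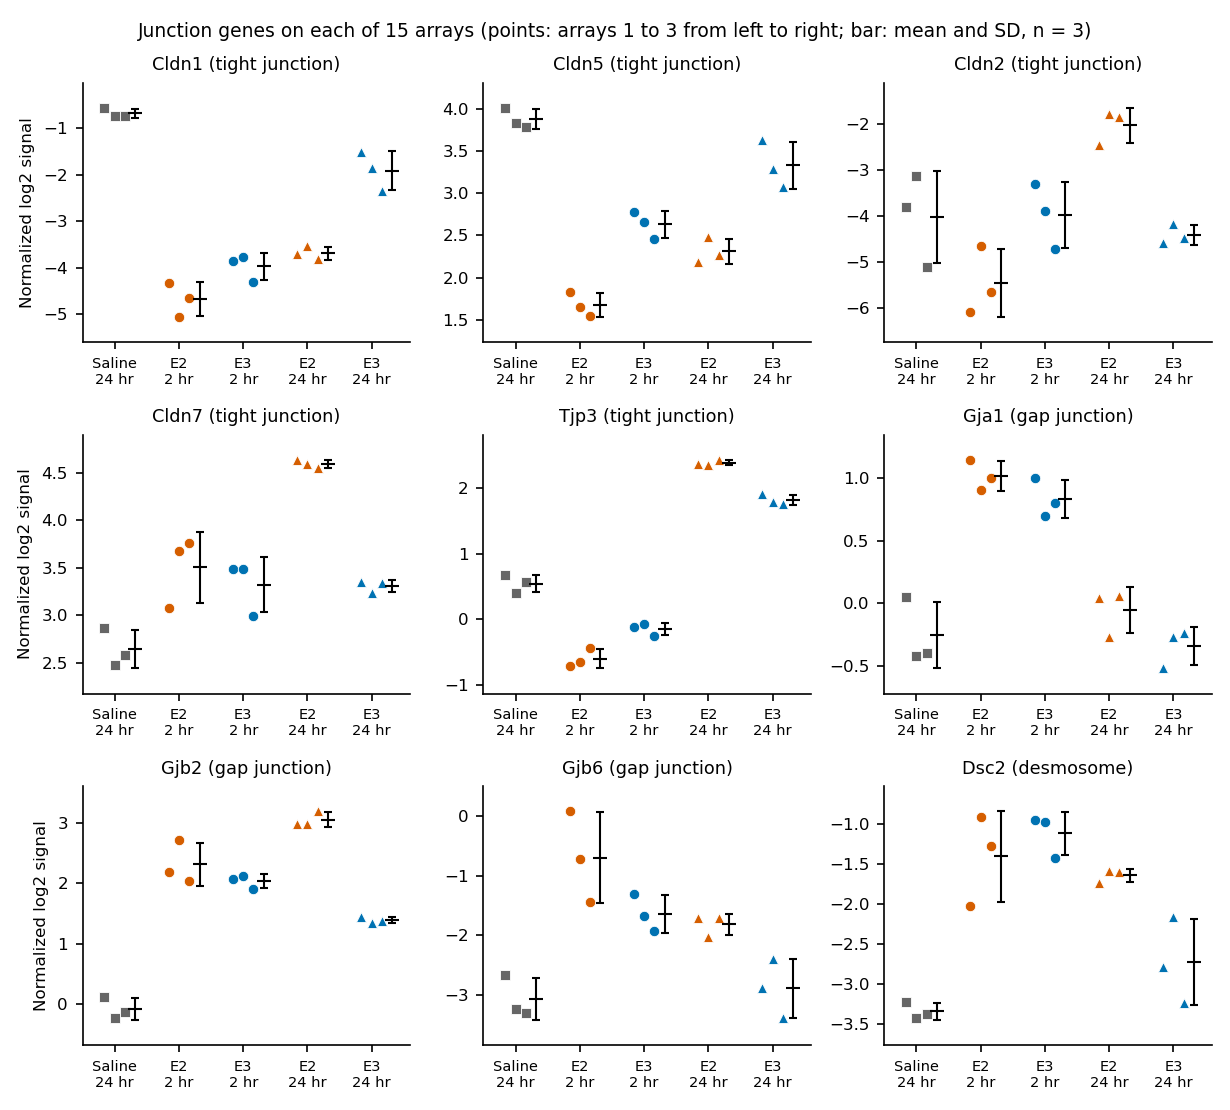
Normalized log2 signal (y axis) of 9 junction genes on each of the 15 arrays by group (x axis). Gray squares are saline, orange points are E2, blue points are E3, circles are 2 hr, and triangles are 24 hr, and bars give the mean and SD of 3 arrays. *Gja1* and *Dsc2* are high at 2 hr, *Tjp3* is low at 2 hr and high at 24 hr, and *Cldn2* and *Cldn7* are highest on the E2 24-hr arrays.

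Among the connexins, *Gjb2*, a connexin of many epithelia, rose in all 4 comparisons with saline. *Gjb2* read 0.13, -0.22, and -0.13 on the saline arrays, 2.18, 2.71, and 2.04 at 2 hr of E2, 2.07, 2.12, and 1.90 at 2 hr of E3, 2.98, 2.98, and 3.19 at 24 hr of E2, and 1.45, 1.35, and 1.38 at 24 hr of E3. Every treated array lay above every saline array, and the E3 24-hr arrays were the lowest of the treated ones. It rose 5.23-fold (log2 2.39 ± 0.154, SE, adjusted p = 1.09e-07) at 2 hr and 8.72-fold (log2 3.13 ± 0.154, SE, adjusted p = 8.12e-08) at 24 hr of E2. With E3 it rose 4.31-fold (log2 2.11 ± 0.154, SE, adjusted p = 5.59e-07) at 2 hr and 2.76-fold (log2 1.46 ± 0.154, SE, adjusted p = 0.000108) at 24 hr. Both *Gjb2* probes were called in each comparison.

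*Gja1*, the main connexin of uterine muscle and stroma, rose at 2 hr with both compounds and lay near the saline level at 24 hr. *Gja1* read 0.05, -0.42, and -0.40 on the saline arrays, 1.15, 0.91, and 1.0 at 2 hr of E2, 1.0, 0.70, and 0.80 at 2 hr of E3, 0.04, -0.27, and 0.06 at 24 hr of E2, and -0.52, -0.27, and -0.24 at 24 hr of E3. The 2-hr arrays lay above all others, and the 24-hr arrays of both compounds overlapped saline. Its rise was 2.42-fold (log2 1.28 ± 0.146, SE, adjusted p = 1.05e-05) with E2 and 2.13-fold (log2 1.09 ± 0.146, SE, adjusted p = 6.12e-05) with E3 at 2 hr. From 2 to 24 hr it fell 2.11-fold (log2 -1.07 ± 0.146, SE, adjusted p = 2.90e-05) with E2 and 2.26-fold (log2 -1.18 ± 0.146, SE, adjusted p = 2.72e-05) with E3. Without array 2 of E2 at 24 hr the E2 fall was -0.97 and not called.

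The proximal promoters of *Gjb2* and *Gja1*, which rose at 2 hr with both compounds, and of *Cldn1* and *Cldn5*, which fell, are shown for comparison. They run from 250 bases before to 50 bases after the transcription start (RefSeq, GRCm38.p6), 5' to 3' on the strand of the gene, with capitals for matches on either strand to GGTCA (1 arm of the estrogen response element), TGANTCA (AP-1), and GGGCGG (a GC box).
Gjb2, chr14:57104653-57104952, minus strand: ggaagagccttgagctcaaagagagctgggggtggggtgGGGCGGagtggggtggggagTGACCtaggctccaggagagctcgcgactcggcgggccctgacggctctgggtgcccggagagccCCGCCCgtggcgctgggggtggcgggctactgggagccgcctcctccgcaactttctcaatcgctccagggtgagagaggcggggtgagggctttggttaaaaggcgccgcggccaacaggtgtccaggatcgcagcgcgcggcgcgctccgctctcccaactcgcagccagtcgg
Gja1, chr10:56377050-56377349, plus strand: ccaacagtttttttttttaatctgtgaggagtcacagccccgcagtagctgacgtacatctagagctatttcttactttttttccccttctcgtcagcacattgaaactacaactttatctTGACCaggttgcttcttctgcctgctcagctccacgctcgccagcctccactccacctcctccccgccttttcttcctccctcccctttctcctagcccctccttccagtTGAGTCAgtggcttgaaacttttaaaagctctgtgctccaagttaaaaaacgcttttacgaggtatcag
Cldn1, chr16:26371790-26372089, minus strand: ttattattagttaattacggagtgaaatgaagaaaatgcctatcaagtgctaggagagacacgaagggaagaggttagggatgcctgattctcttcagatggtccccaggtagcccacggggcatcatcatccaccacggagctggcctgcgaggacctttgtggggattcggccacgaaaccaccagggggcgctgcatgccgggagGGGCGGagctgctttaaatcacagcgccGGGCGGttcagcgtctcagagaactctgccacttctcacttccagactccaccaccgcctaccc
Cldn5, chr16:18776597-18776896, plus strand: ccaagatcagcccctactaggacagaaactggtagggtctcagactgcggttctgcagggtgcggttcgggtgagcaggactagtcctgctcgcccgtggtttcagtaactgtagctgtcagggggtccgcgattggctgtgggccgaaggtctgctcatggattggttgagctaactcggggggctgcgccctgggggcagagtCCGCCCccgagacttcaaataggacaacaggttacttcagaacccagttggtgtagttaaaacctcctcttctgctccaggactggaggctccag
The windows of *Gjb2* and *Gja1* each hold GGTCA once (as TGACC, the other strand), and those of *Cldn1* and *Cldn5* hold none. Other genes differed from these, in that the window of *Jup*, which also rose at 2 hr with both compounds, holds 0 and those of *Cldn4* and *Cldn22*, which fell at 2 hr of E2, hold 1 each. *Gja1* has 1 AP-1 match, *Gjb2* and *Cldn1* have 2 GC boxes each, and *Cldn5* has 1. The full palindrome GGTCANNNTGACC, which contains GGTCA on both strands, was in 0 of 45 windows of 31 junction genes that matched the table, and in 0.0701% of 32817 windows of all genes. GGTCA was in 51.1% of the junction windows and 40.5% of all windows, AP-1 in 6.67% and 7.81%, and the GC box in 53.3% and 35.6%. A match is a string of letters and not a measured site.

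*Gjb5* and *Gjb6* are connexins known from epidermis. *Gjb6* read -2.67, -3.23, and -3.31 on the saline arrays, 0.09, -0.72, and -1.44 at 2 hr of E2, -1.30, -1.67, and -1.93 at 2 hr of E3, -1.71, -2.02, and -1.71 at 24 hr of E2, and -2.88, -2.40, and -3.39 at 24 hr of E3. The arrays of E2 at 2 hr were high but spread widely and overlapped those of E3 at 2 hr. *Gjb6* rose 5.2-fold (log2 2.38 ± 0.351, SE, adjusted p = 8.21e-05) at 2 hr of E2 and was 1.44, 1.26, and 0.18 in the others, not called. *Gjb5* read -2.94, -3.04, and -3.11 on the saline arrays, -4.31, -3.90, and -4.0 at 2 hr of E2, -3.25, -3.39, and -3.83 at 2 hr of E3, -2.20, -2.39, and -2.89 at 24 hr of E2, and -2.85, -2.73, and -2.93 at 24 hr of E3. The E2 2-hr arrays were the lowest of all, and the 24-hr arrays of both compounds lay just above saline. *Gjb5* fell 2.05-fold (log2 -1.04 ± 0.185, SE, adjusted p = 0.00037) at 2 hr of E2, a call lost without saline array 1 or E2 2-hr array 1 (log2 -0.99 and -0.92), with normexp (-0.82), with quantile normalization (-0.84), and without scaling (-0.95). From 2 to 24 hr of E2 it rose 2.98-fold (log2 1.57 ± 0.185, SE, adjusted p = 8.11e-06).

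*Gjb2*, *Gjb6*, and *Gja3* lie within 88.7 kb at chr14:51902421-51991167 (mm7), and they had log2 changes of 2.39, 2.38, and 1.1 at 2 hr of E2 and 3.13, 1.26, and 1.41 at 24 hr. Of these, *Gja3* at 2 hr and *Gjb6* at 24 hr were not called. With E3 the changes were 2.11, 1.44, and 0.40 at 2 hr and 1.46, 0.18, and 0.48 at 24 hr, and only *Gjb2* was called.

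*Gjb1*, the connexin of hepatocytes and Schwann cells, and *Gja3*, a connexin of the lens, rose at 24 hr of E2. *Gjb1* read -5.58, -5.99, and -6.12 on the saline arrays, -6.75, -6.12, and -6.23 at 2 hr of E2, -6.13, -5.64, and -6.11 at 2 hr of E3, -5.02, -4.90, and -4.64 at 24 hr of E2, and -5.67 and -5.91 at 24 hr of E3. Array 2 of E3 at 24 hr carried an outlier flag for *Gjb1* and was left out of its fit. The E2 24-hr arrays were the highest, and *Gjb1* rose 2.06-fold (log2 1.04 ± 0.205, SE, adjusted p = 0.00103). The pancreatic sum on these arrays was -1.19, 8.05, and 2.39. *Gja3* read -3.26, -3.35, and -3.07 on the saline arrays, -3.07, -1.35, and -1.97 at 2 hr of E2, -2.75, -2.56, and -3.18 at 2 hr of E3, -1.92, -1.71, and -1.80 at 24 hr of E2, and -2.58, -2.83, and -2.85 at 24 hr of E3. At 2 hr the E2 arrays spread widely and the E2 24-hr arrays lay close together. *Gja3* rose 2.67-fold (log2 1.41 ± 0.323, SE, adjusted p = 0.00228) at 24 hr of E2, by 1 of its 3 probes. The *Gjb1* call was lost without saline array 2 or 3 or E2 24-hr array 2 or 3 (log2 0.93 to 1.06), and that of *Gja3* when any of 13 single arrays was left out (log2 1.35 to 1.49). With normexp the values were 0.58 and 1.23, and without array 2 of E3 at 2 hr, E2 at 24 hr, and E3 at 24 hr they were 1.06 and 1.36, and neither was called.

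*Gja4*, a connexin of endothelium, was -0.38 at 2 hr and -0.12 at 24 hr of E2 on the log2 scale and was not called. *Gja7*, a connexin of vascular smooth muscle, was -0.80 ± 0.135 at 24 hr of E2 (adjusted p = 0.000257), short of 2-fold.

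Of the desmosome genes, the cadherin *Dsc2* and plakoglobin *Jup*, an armadillo protein shared by desmosomes and adherens junctions, rose at 2 hr with both compounds. *Dsc2* read -3.22, -3.43, and -3.37 on the saline arrays, -2.02, -0.91, and -1.27 at 2 hr of E2, -0.94, -0.97, and -1.42 at 2 hr of E3, -1.74, -1.58, and -1.60 at 24 hr of E2, and -2.78, -2.16, and -3.23 at 24 hr of E3. Every array of the 2-hr groups and of E2 at 24 hr lay above the saline arrays, and array 3 of E3 at 24 hr lay within them. *Dsc2* rose 3.84-fold (log2 1.94 ± 0.283, SE, adjusted p = 7.57e-05) at 2 hr and 3.25-fold (log2 1.70 ± 0.283, SE, adjusted p = 0.000242) at 24 hr of E2, and 4.7-fold (log2 2.23 ± 0.283, SE, adjusted p = 3.98e-05) at 2 hr of E3. Each of its 3 probes was called in these comparisons. *Jup* read -2.35, -2.48, and -2.34 on the saline arrays, -1.21, -0.67, and -1.0 at 2 hr of E2, -1.37, -1.29, and -1.37 at 2 hr of E3, -1.92, -1.89, and -1.85 at 24 hr of E2, and -2.01, -1.72, and -2.08 at 24 hr of E3. Every treated array lay above every saline array, the 2-hr arrays most. *Jup* rose 2.69-fold (log2 1.42 ± 0.128, SE, adjusted p = 1.38e-06) with E2 and 2.06-fold (log2 1.05 ± 0.128, SE, adjusted p = 2.88e-05) with E3 at 2 hr. Within the slide that held saline array 3 and the E3 2-hr arrays, the E3 change of *Jup* was 1.0, a value that rests on 1 saline array. With normexp the E3 change was 1.0 and not called.

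*Dsg3*, the desmoglein of squamous epithelium, was called at 24 hr with both compounds from a level that was not well above background on any saline array. *Dsg3* read -9.86, -9.94, and -10.30 on the saline arrays, -8.14, -9.25, and -9.08 at 2 hr of E2, -9.81, -9.23, and -8.51 at 2 hr of E3, -7.90, -6.79, and -6.78 at 24 hr of E2, and -8.47, -6.18, and -7.69 at 24 hr of E3. The 24-hr arrays lay above saline, but 2 of 3 with E2 and 1 of 3 with E3 were well above background. It thus passed the filter only through E2 at 24 hr, a group where it was high, so the filter favored its rise. *Dsg3* was at least 1.95-fold higher with E2 (adjusted p = 0.000575) and at least 1.59-fold higher with E3 (adjusted p = 0.00344), the bright group against the dimmest signals that count as well above background. The E3 bound rests on array 2 (-6.18), since arrays 1 and 3 lay near those dimmest signals. Leaving out saline array 3 or E2 24-hr array 2 or 3 lost the E2 call, and leaving out any saline array or E3 24-hr array 2 or 3 lost the E3 call. With normexp neither was called, and the log2 changes of the measured means were 0.32 with E2, below the bound just given, and 1.61 with E3. The E3 call was also lost without array 2 of E3 at 2 hr, E2 at 24 hr, and E3 at 24 hr. Of the 9 squamous transcripts, 4 were called higher at 24 hr of E2 and 0 at 24 hr of E3, where 7.73% and 2.28% of all genes tested were called higher. Array 2 of E3 at 24 hr, the highest of its group for *Dsg3*, had the highest squamous sum (6.01), and the part of these transcripts in the result was not tested.

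*Pkp1*, the plakophilin of stratified epithelia, was not called against saline, and its arrays spread widely. *Pkp1* read -2.20, -4.15, and -3.48 on the saline arrays, -3.46, -4.84, and -4.01 at 2 hr of E2, -3.94, -1.76, and -1.87 at 2 hr of E3, -0.81, -0.03, and -0.55 at 24 hr of E2, and -1.93, 0.92, and -1.98 at 24 hr of E3. Array 2 of E3 at 24 hr, with that squamous sum, was the highest of all. At 2 hr of E3 the squamous sum was 1.81, 3.18, and 3.06 on arrays 1, 2, and 3, and *Pkp1* was likewise lowest on array 1. The part of these transcripts in the *Pkp1* values was not tested. Its log2 change was 2.82 ± 0.808 at 24 hr of E2 (adjusted p = 0.00928) and 2.28 ± 0.808 at 24 hr of E3 (adjusted p = 0.0463). The plakophilins *Pkp2* and *Pkp3* and desmoplakin *Dsp*, which are not limited to stratified epithelia, had smaller changes at 24 hr. *Pkp3* was -0.99 at 2 hr and 0.81 at 24 hr of E2, and it rose 3.5-fold (log2 1.81 ± 0.13, SE, adjusted p = 1.27e-07) between these times. *Dsp* was 0.90 at 24 hr of E2 and 0.81 at 24 hr of E3, and rose 2.68-fold (log2 1.42 ± 0.174, SE, adjusted p = 1.16e-05) and 2.3-fold (log2 1.2 ± 0.174, SE, adjusted p = 9.29e-05) from 2 to 24 hr. At 24 hr of E2, 12 of the 13 desmosome genes (92.3%) had a log2 change above 0, beside 51.7% of all genes tested, and 2 (15.4%) were called, a share near the 16.1% of all genes. *Dsg3* and other desmogleins among the 12 passed the filter only through 24-hr groups. The filter thus favored their rise, and the 92.3% rests partly on them. The called change of *Pkp1* from 2 to 24 hr of E2 (log2 3.64 ± 0.808) was lost when any of 8 single arrays was left out, with log2 values of 3.28 to 3.97 that missed the p-value limit.

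*Cdh1*, E-cadherin of epithelial adherens junctions, rose 2.04-fold (log2 1.03 ± 0.13, SE, adjusted p = 3.04e-05) at 24 hr of E2. *Cdh1* read 1.76, 1.62, and 1.64 on the saline arrays, 1.74, 2.24, and 2.16 at 2 hr of E2, 1.5, 1.32, and 1.16 at 2 hr of E3, 2.82, 2.57, and 2.70 at 24 hr of E2, and 2.36, 2.25, and 2.35 at 24 hr of E3. The E2 24-hr arrays were the highest and those of E3 at 24 hr came next, above all saline arrays. The call was lost without saline array 2 or E2 24-hr array 1 (log2 1.0 and 0.96), with quantile normalization (0.88), and with the percentile taken over probes detected on all arrays (0.97). Of 7 simple epithelial markers measured, 5 were called higher at 24 hr of E2 and 1 at 24 hr of E3, where 7.73% and 2.28% of all genes tested were called higher. The part of these markers in the rises of *Cdh1*, *Cldn7*, and other epithelial junction genes was not tested.

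The 27 junction genes not called against saline ranged from -1.44 (*Cldn2*) to 0.93 (*Gja6*) on the log2 scale at 2 hr of E2 and from -0.76 (*Ocln*) to 0.76 (*Pkp1*) at 2 hr of E3. At 24 hr they ranged from -0.80 (*Gja7*) to 2.82 (*Pkp1*) with E2 and from -0.84 (*Cldn6*) to 2.28 (*Pkp1*) with E3. They comprise 11 tight junction, 6 gap junction, and 10 desmosome genes. By their brightest probes, *Cldn12*, *Cldn14*, and *Cldn19* stayed between -0.54 and 0.53 in all 4, as did *Gja5*, a connexin of arterial endothelium, and *Pkp4*, between -0.25 and 0.39. *Cldn15*, a claudin of the intestinal crypt that passes cations, was 0.90 and 0.70 at 2 hr of E2 and E3. *Dsg2*, the desmoglein of simple epithelia, was 0.98 at 24 hr of E2, and other probes of *Dsg2*, *Ppl*, *Pkp4*, *Gja3*, *Gja5*, *Gjb6*, and *Cldn19* gave changes of the other sign in at least 1 comparison with saline. Some other probes were called. At 2 hr of E3, 1 of *Cldn19* was called higher (1.35) and 1 of *Gja5* lower (-1.3, the lowest of its 4 probes). A *Ppl* probe was called higher at 2 hr of E2 (1.29), as was a *Dsg2* probe at 24 hr of E2. The other *Pkp4* probe was at -0.74 at 2 hr of E2, not called.

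The compounds were then compared with each other at the same dose and time, for the 51 junction genes at 2 and at 24 hr, with p-values adjusted over all tested probes. At 2 hr, 1 junction gene was called (1.96%, against 5.05% of all genes tested, 1.59% higher and 3.45% lower with E3). *Cldn4* was 2.07-fold higher with E3 than with E2 (1.05 ± 0.149, adjusted p = 0.000185). Here too the compound is confounded with strain and scanner. The *Cldn4* call was lost without E2 2-hr array 2 (0.99) or E3 2-hr array 1 or 2 (0.93 and 1.0), with normexp (0.90), and with no scaling between arrays (0.96). For 29 of the 51 genes the 95% interval of the difference lay within 2-fold in either direction, and for 22 it reached 2-fold. The genes that rose at 2 hr with both compounds had E3 minus E2 differences of -0.28 (95% interval -0.61 to 0.06) for *Gjb2*, -0.19 (95% interval -0.51 to 0.13) for *Gja1*, -0.38 (95% interval -0.66 to -0.10) for *Jup*, and 0.29 (95% interval -0.33 to 0.91) for *Dsc2*, none of which was called. For *Cldn1*, *Cldn5*, and *Cldn8*, which fell, the differences were 0.71 (95% interval 0.22 to 1.2), 0.95 (95% interval 0.64 to 1.27), and -0.57 (95% interval -1.0 to -0.13).

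At 24 hr, 7 junction genes were called between the compounds (13.7%, against 5.35% of all genes tested), 3 higher and 4 lower with E3 (3% and 2.35% of all genes). Each compound had slides of its own at 24 hr, so compound and slide cannot be told apart here. The 3 higher with E3 were genes that E2 held below saline at 24 hr. *Cldn1* was 3.43-fold (log2 1.78 ± 0.225, SE, adjusted p = 0.000121) higher with E3, *Cldn16* 2.84-fold (log2 1.51 ± 0.282, SE, adjusted p = 0.0015), and *Cldn5* 2.03-fold (log2 1.02 ± 0.144, SE, adjusted p = 0.000252). Those lower were genes whose E2 24-hr arrays were above saline. *Cldn2* was 5.18-fold (log2 -2.37 ± 0.501, SE, adjusted p = 0.00314) lower with E3, *Gjb2* 3.16-fold (log2 -1.66 ± 0.154, SE, adjusted p = 1.96e-05), and *Cldn7* 2.44-fold (log2 -1.28 ± 0.18, SE, adjusted p = 0.000237). The arrays of the compounds did not overlap for any of the 7, which was also so for many junction genes that were not called. No desmosome gene was called, and the 95% interval of the difference lay within 2-fold for 8 of the 13 desmosome genes, 13 of the 22 tight junction genes, and 7 of the 15 gap junction genes. For *Tjp3* the difference was -0.57 (95% interval -0.78 to -0.36), for *Cdh1* -0.38 (95% interval -0.66 to -0.10), and for *Dsc2* -1.08 (95% interval -1.70 to -0.46).

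Leaving out E2 24-hr array 1 or 3 or E3 24-hr array 1 lost the call of *Cldn5* (0.96, 1.0, and 0.87), as did omitting the scaling (0.97). With normexp, *Cldn5*, *Cldn2*, and *Cldn16* were at 0.91, -1.38, and 1.5 and not called. For *Cldn2* it was lost without E2 24-hr array 2 or 3 or any E3 24-hr array (-2.50 to -2.25). Without array 2 of E3 at 2 hr, E2 at 24 hr, and E3 at 24 hr, *Cldn16* and *Cldn2* were at 1.56 and -2.37 and lost their calls, and 4 of the 7 genes kept theirs.

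**Figure D4:**
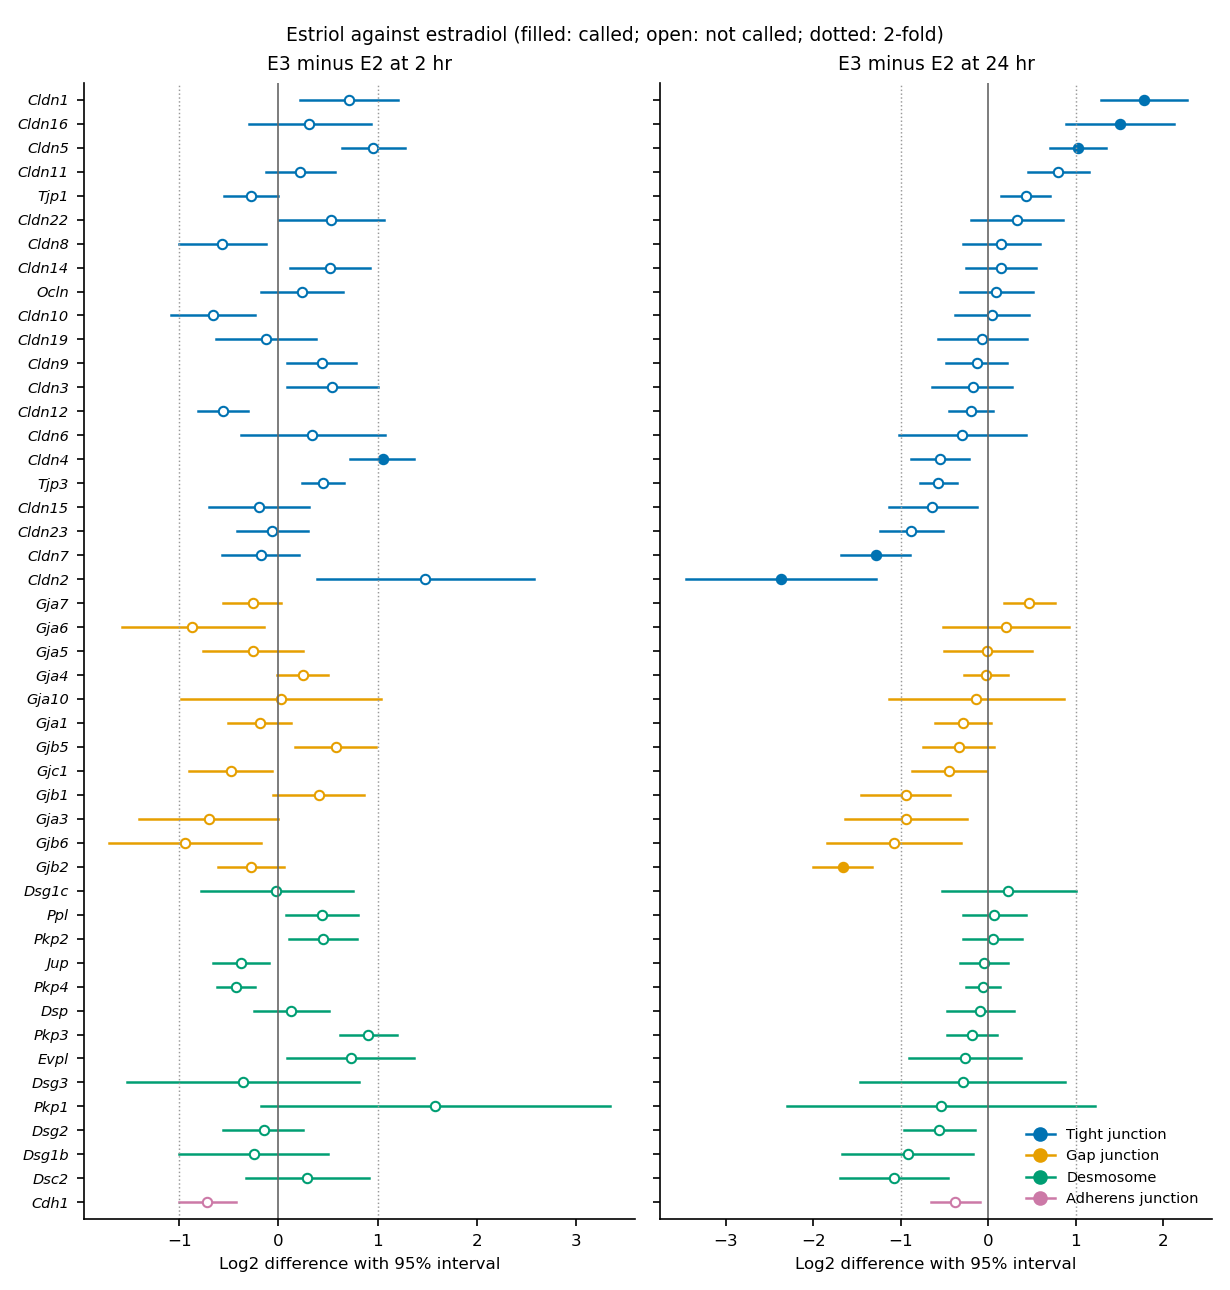
Log2 difference of E3 minus E2 with its 95% interval (x axis) for 47 junction genes (y axis) at 2 hr (left) and 24 hr (right). Filled points are called, and dotted lines mark a 2-fold difference. At 2 hr 1 point is filled, *Cldn4*, and at 24 hr 6 are filled, with *Cldn1*, *Cldn16*, and *Cldn5* to the right of 0 and *Cldn7*, *Cldn2*, and *Gjb2* to the left.

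Over time, 17 junction genes changed between 2 and 24 hr of E2 (33.3%, against 28.3% of all genes), 14 upward and 3 downward (15.4% and 12.9% of all genes). Between 2 and 24 hr of E3 there were 10 (19.6%, against 15.9%), 7 upward and 3 downward (10.2% and 5.7%). With E2 the rises included *Pkp1*, *Cldn2*, *Tjp3*, and *Cldn4* (4.49-fold, adjusted p = 8.76e-08), and the 3 falls were *Gja1*, *Gja7* (2.3-fold, adjusted p = 5.34e-06), and *Cldn10* (2.61-fold, adjusted p = 3.51e-05), a claudin of kidney and other ion-transporting epithelia. With E3 the rises included *Cldn1* (4.19-fold, adjusted p = 9.41e-06), *Cldn16* (3.2-fold, adjusted p = 0.00029), and *Cldn8*, and the falls included *Dsc2* (3.06-fold, adjusted p = 0.000402) and *Gja1*. The genes called in the same direction for both compounds included *Gja1*, *Dsp*, *Ocln*, and *Tjp3*. The E2 comparison again holds strain and scanner within it. The difference between the compounds changed between 2 and 24 hr for 8 junction genes (15.7%, against 12.6% of all genes tested), each toward lower values with E3 (4.6% of all genes). They included *Cldn2*, *Cldn4*, *Cldn7*, *Tjp3*, *Gjb2*, and *Pkp3*.

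Of 52 further junction genes fixed as a list (tight and adherens junction proteins, pannexins, hemidesmosome and cornified envelope genes), 50 were on the array and 49 passed the filter. E2 raised 2 and lowered 0 at 2 hr, where 19.4% of all genes tested were called, and raised 5 and lowered 5 at 24 hr, where 16.1% were. E3 raised 2 and lowered 1 at 2 hr, beside 12.3% of all genes, and raised 3 and lowered 0 at 24 hr, beside 3.93%. At 2 hr the rises were the nectin gene *Pvrl1* (log2 2.45 with E2 and 2.53 with E3) and *Perp*, a desmosome-associated membrane protein (1.83 and 1.44), and the fall with E3 was the scaffold *Magi2* (-1.23). *Perp* stayed higher at 24 hr (1.67 and 1.26). *Marveld3*, a relative of occludin, was -0.32 and -0.25 at 2 hr, not called, and rose at 24 hr (1.37 and 1.04). *Ivl*, the cornified envelope protein involucrin, was called higher at 24 hr with both, from a saline mean of -10.18, below the dimmest signal well above background. The other rises at 24 hr of E2 included *Csda* (1.08), and the falls were the cadherins *Cdh2* (-1.03) and *Cdh5* (-1.06) with *Dst* (-1.27), *Inadl* (-1.18), and *Magi2* (-1.17). The catenins *Ctnna1* (0.33 and 0.11 at 2 hr of E2 and E3) and *Ctnnb1* (0.09 and -0.12), which bind cadherins inside the cell, were not called.

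Of 14 regulators of epithelial and junction genes listed, 11 were measured. *Elf3*, an epithelial transcription factor, was higher in all 4 comparisons (log2 1.78 and 1.65 at 2 hr and 2.48 and 1.02 at 24 hr of E2 and E3), and it was lower with E3 than with E2 at 24 hr (-1.45). *Klf4* rose at 2 hr (1.75 with E2 and 1.73 with E3) and was not called at 24 hr (0.75 and -0.34). *Snai1*, a repressor of E-cadherin, fell at 24 hr with both (-1.52 and -1.46), and the related repressor *Snai2* was not called (0.31 and 0.22). *Ovol2* rose at 24 hr of E2 (1.22) and *Twist1* fell at 2 hr of E3 (-1.02). *Grhl2*, an activator of *Cdh1* and claudin genes, was not called (0.65, 0.85, 0.18, and -0.23).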

How the data were processed

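The arrays were Agilent one-color whole mouse genome arrays. Per the file headers, the deposited intensity of each spot is the processed signal of Agilent Feature Extraction 9.5.3.1, which subtracts the local background, and the probe positions are those of the build mm7:NCBI35:Aug2005. The authors ran the software with its one-color defaults and then used another program whose steps were not repeated here. The deposited value table holds the same intensities as the scanner files and was an alternative.

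Of 43379 spots that are not controls, 41174 probes resulted after spots of 1 probe were averaged, and 744 values were missing because of outlier flags. The log2 of each array's 75th percentile was subtracted. Probes well above background on 2 of 3 arrays of a group were kept (34776, 84.5%). All 15 arrays were fitted together with limma 3.58.1 (R 4.3.3, lmFit and eBayes, 10 residual and 2.06 prior degrees of freedom), with the group means as coefficients. Named genes were represented by their brightest probe. A call needed p below 0.001 and a 2-fold change, after the thresholds of the study's methods as far as they could be applied. The steps were tested on simulated data. Arrays have no read depth, and their number limits the precision.

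The text names the genes called against saline or between compounds, and those that the gene lists hold, and the results of some of them are not reported here. The members and lists were chosen with earlier results of these data known. Alternatives were normexp (offset 50), quantile normalization, other percentiles or no scaling, other filters on dim probes (a mean signal above 100 or none), other thresholds, the mean of a gene's probes, the slide as a random block, the replicate number as a block, and leaving out arrays. Promoters came from RefSeq (GRCm38.p6), and no genome of the build mm7 was used. Figures were drawn with matplotlib 3.10.9 (Python 3.11.15).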

Additional observations from a re-analysis of the deposited data

Results flagged for a closer look

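For 8 junction genes the E3 minus E2 difference itself changed between 2 and 24 hr, by limma's test of that change. The change, in log2 units, was -3.85 for *Cldn2* (1.48 at 2 hr and -2.37 at 24 hr, adjusted p = 0.000939). It was -1.60 for *Cldn4* (1.05 and -0.55, adjusted p = 0.000106), -1.38 for *Gjb2* (-0.28 and -1.66, adjusted p = 0.000337), and -1.11 for *Cldn7* (-0.18 and -1.28, adjusted p = 0.00385). For *Pkp3* it was -1.09 (0.90 and -0.19, adjusted p = 0.00053) and for *Tjp3* -1.02 (0.45 and -0.57, adjusted p = 0.000114). The E2 2-hr arrays, of another strain and scanner, enter each of these values, and the change of compound with time cannot be told apart from them. Without array 1 of E2 at 2 hr, 5 junction genes were called in this test, and *Cldn7* (-0.89), *Pkp3* (-0.96), and *Tjp3* (-0.97) were not. The call of *Cldn7* was lost when any of 12 single arrays was left out (-1.19 to -0.89), and also with normexp (-1.1), quantile normalization (-1.02), no filter on dim probes (-1.11), and the replicate number as a block (-1.11). That of *Tjp3* was lost when any of 5 single arrays was left out (-1.0 to -0.97), with quantile normalization (-0.93), and without scaling (-0.98). Normexp also lost the calls of *Cldn2* (-2.42) and *Cldn4* (-1.17). Without array 2 of E3 at 2 hr, E2 at 24 hr, and E3 at 24 hr, 2 were called.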

How the results depend on the processing

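The 75 calls of named genes were recomputed under the alternatives that could give a value, which gave 2140 values. A mean signal above 100 left 7 of the calls (*Cldn16* and *Dsg3*) without a value, and they are not counted as lost. The slide with saline array 3 and the fit without the E2 2-hr arrays could give 8 and 39 of the calls. Of these, 2004 kept direction and call, and 136 kept the direction and lost the call. Normexp lost 23 calls and put the median log2 change of all probes at 0.32 for E3 at 24 hr against saline, 0.44 for E3 against E2 at 24 hr, 0.50 for E3 from 2 to 24 hr, and 0.48 for the change of the compound difference with time, where the main processing gave -0.01, 0.06, 0.12, and 0.11. Its called junction genes numbered 9 for E2 and 2 for E3 at 24 hr against saline, 0 and 3 for E3 against E2 at 2 and 24 hr, and 3 for the change with time. The causes of these differences were not tested. E3 against E2 at 2 hr had 2 calls with quantile normalization, 0 without scaling, and 3 at an adjusted p under 0.05 with 2-fold. Without the 2-fold minimum the counts were 9 for E3 at 24 hr, 7 and 11 for E3 against E2 at 2 and 24 hr, and 26 and 16 for E2 and E3 from 2 to 24 hr. An alternative chosen after seeing the data left out array 2 of E3 at 2 hr, E2 at 24 hr, and E3 at 24 hr. It gave 2 calls for E3 at 24 hr, 0 and 4 for E3 against E2 at 2 and 24 hr, and 2 for the change with time. Among changes from 2 to 24 hr it lost *Gja1* with E2 (-0.97) and *Ocln* with E3 (1.21), and normexp lost *Dsc2* (-1.16) and *Cldn16* (1.56) with E3. The call of *Cldn3* at 2 hr of E2 was lost without scaling (-0.96), and that of *Pkp1* from 2 to 24 hr of E2 with the replicate number as a block (3.64). That of *Gja3* at 24 hr of E2 was lost with the block (1.41), the mean of its probes (1.21), and the percentile over probes above background on all arrays (1.36). That of *Cldn4* for E3 against E2 at 2 hr was lost with normexp (0.90), without scaling (0.96), and without the 3 arrays (1.0).

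Leaving out 1 array at a time gave 14 to 18 and 9 to 11 junction genes for E2 and E3 at 2 hr and 12 to 16 and 3 to 5 at 24 hr. It gave 0 to 3 and 5 to 8 for E3 against E2 at 2 and 24 hr, 15 to 19 and 9 to 12 for E2 and E3 from 2 to 24 hr, and 5 to 9 for the change with time. The 3 calls of E3 against E2 at 2 hr came without array 1 of E2 at 2 hr, and 0 without array 2 of E2 or of E3 at 2 hr. The replicate numbers did not pair the samples as a whole, since 9 of 30 same-numbered pairs of arrays deviated together (r above 0.1, range -0.458 to 0.544) and 5 of 15 arrays correlated best with their own number. Between E3 at 2 hr and E3 at 24 hr, each same-numbered pair was above 0.1 (0.378, 0.114, and 0.544 for numbers 1, 2, and 3). With the replicate number as a block, 16, 11, 16, and 4 genes were called against saline, 1 and 6 between the compounds, 16 and 11 from 2 to 24 hr, and 7 for the change with time. The slide as a random block (correlation -0.0125) changed none of the 75 calls. That block could not separate slide from treatment, since only the slide with saline array 3 and the E3 2-hr arrays held more than 1 group. Leaving out the E2 2-hr arrays changed none of the 39 calls that do not use them.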
